A study of Mus musculus with 2 samples.

Results

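The 42 genes described here are type I interferon-stimulated genes, named by symbol, and all 42 were found among the 27998 genes of the deposited matrices. They were followed in 3 classes of retinal myeloid cells. Microglia were cells in which P2ry12, Tmem119, Siglech, Gpr34 and P2ry13 together reached 20 unique molecular identifiers (UMIs, each standing for 1 captured transcript) per 10000. Perivascular macrophages were cells in which Mrc1, F13a1, Cd163, Lyve1 and Cbr2 together reached 10 per 10000, and other macrophages had both sums under 10.

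The cells were live YFP+ cells sorted from retinas of male CB6F1 mice, 8 months old. Their Cx3cr1-YFP reporter uses the promoter of the fractalkine receptor gene to make a yellow fluorescent protein in microglia and related myeloid cells. The control library came from retinas with no light damage. For the light-damaged library the protocol gives dark adaptation overnight, pupils dilated with atropine sulfate and phenylephrine hydrochloride, exposure to 10 klux from LEDs for 4 h, and then 5 days in normal lighting. The labels do not say whether control mice were dark-adapted or dilated. Each group was 1 pool of retinas from 5 to 8 mice and 1 library (10x Genomics, reading transcript 3' ends), so no difference between groups has a replicate check, and group and library cannot be told apart.

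Type I interferons bind a receptor on nearly every cell, and the signal reaches the nucleus as ISGF3, a complex that includes STAT2 and IRF9. ISGF3 binds the interferon-stimulated response element (ISRE) in promoters and switches on genes that sense, degrade or trap viral RNA and proteins, together with IRF7, which amplifies the response. Many of these genes also have a low tonic level in healthy tissue, and in microglia they are known to be used in injury and neurodegeneration without infection.

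The control library kept 3820 cells with a median of 4833 UMIs and the light-damaged library 6427 cells with a median of 7277, and 47 barcodes occurred in both libraries. There were 3374 control and 4385 light-damaged microglia, 53 and 84 perivascular macrophages, and 244 and 1171 other macrophages. The remaining 149 and 787 cells lay between the gates or passed both of them. In microglia all 10 microglia markers were detected at 5 or more UMIs per 1000000 (CPM) in both libraries. This does not check the name, because the gate genes are among the 10. All 10 also reached 5 CPM in perivascular and in other macrophages. Markers of neutrophils and of T or NK cells summed to under 1 CPM in microglia (0.182 and 0.492 for neutrophils). The class of other macrophages did not hold the same cells in both libraries. In the control library 55 of its 244 cells (22.5%) were rich in rod photoreceptor transcripts, against 15 of 1171 (1.28%) in the light-damaged library, and the 7 rod markers summed to 15402 and 326 CPM. The 8 perivascular markers summed to 1029 CPM in its control cells and 214 in its light-damaged cells, and the T or NK markers to 26.9 and 0. It is therefore called by its rule here.

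Many members hold a promoter feature that the selection did not use. In RefSeq's GRCm38.p6 table of promoter windows, 33 of the 42 members were found. A core of the ISRE was searched in the 250 bases before the start site on both strands, spelled as GAAA, any 2 bases, GAAA, or as TTTC, any 2 bases, TTTC. It was present for 15 of these 33 members (45.5%), against 3.46% of the 27025 genes in the table. A match is a run of letters and not a measured binding site. The stretches of 100 bases below run 5' to 3' along the gene's own strand. They come from members with a match and the most UMIs in light-damaged microglia in each pattern described next. The patterns rest on the levels of bins of cells, as defined below. Bst2 and Oas1a counted as raised in most light-damaged microglia, Isg15 and Ifit3 as held by few and Trim30a as in between. Igtp differed by less than 1.5-fold. Oas1a kept its pattern in 5 of 10 alternative settings. Capitals mark the matches, and coordinates are those of GRCm38.
Bst2 (chr8:71537577-71537676, minus strand): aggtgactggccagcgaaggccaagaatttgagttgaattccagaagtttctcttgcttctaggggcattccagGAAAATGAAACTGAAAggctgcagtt
Oas1a (chr5:120907526-120907625, minus strand): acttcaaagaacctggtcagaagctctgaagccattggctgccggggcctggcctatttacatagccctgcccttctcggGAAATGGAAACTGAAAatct
Trim30a (chr7:104465210-104465309, minus strand): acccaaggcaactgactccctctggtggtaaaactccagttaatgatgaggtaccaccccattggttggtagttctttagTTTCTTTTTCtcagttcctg
Isg15 (chr4:156200865-156200964, minus strand): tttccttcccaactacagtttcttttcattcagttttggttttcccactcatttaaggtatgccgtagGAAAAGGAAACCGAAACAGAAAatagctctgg
Ifit3 (chr19:34583327-34583426, plus strand): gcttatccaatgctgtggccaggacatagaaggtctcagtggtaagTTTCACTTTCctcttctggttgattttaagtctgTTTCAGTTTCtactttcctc
Igtp (chr11:58199442-58199541, plus strand): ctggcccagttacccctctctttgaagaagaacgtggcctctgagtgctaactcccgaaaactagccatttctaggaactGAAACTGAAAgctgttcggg
Isg15 had 3 overlapping matches, Bst2 and Oas1a had 2 overlapping matches each, and Ifit3 had 2 separate ones. The match was found in every pattern: 2 of 9 members raised in most cells had one, 3 of 4 of those in between, 2 of 4 of those held by few cells and 1 of 4 of those within 1.5-fold. Of the members under 20 CPM in microglia, which have no pattern here, 7 of 12 had one.

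Several members are also neighbours. Ifit2, Ifit3, Ifit3b and Ifit1 lie in that order on chromosome 19 (GRCm38, from 34550694 to 34650009, plus strand). Oasl2 and Oasl1 lie side by side on chromosome 5 (114896936 to 114937915, plus strand), with Oas2, Oas3 and Oas1a further along (120730333 to 120907521, minus strand). Rsad2 and Cmpk2 are adjacent on chromosome 12 in opposite directions. Some of these copies share sequence near their 3' ends, where the reads fall: 56.1% of the 50-base words in the last 500 bases of the Oas1a transcripts also occur in another gene, as do 19.9% for Trim30a, 24.5% for Herc6, 14.9% for Ifit3 and 14.0% for Ifitm3, so the values of these 5 genes are uncertain where reads could be split.

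In microglia the set was higher in the light-damaged library. Its summed level was 946 CPM in control and 3543 CPM in light-damaged microglia. Members and all other genes were compared when they reached 20 CPM in either library, and a gene was called higher or lower past 1.5-fold. Of 28 members that reached this level, 24 were higher, 0 were lower and 4 lay within 1.5-fold. Over all 5224 genes compared, 5.42% were higher and 6.7% were lower. The median log2 ratio was 1.39 over the 28 members and -0.02 over all genes compared. A minimum can favour genes that are high in 1 group. Of the 13 members at 20 CPM in control microglia 10 were higher, but no matching share over all genes was computed. With no minimum 35 of 42 were higher, against 11.1% of 14033 genes. The ratio's interval lay above 1 for 41 of 42 members, the exception being Igtp. The share of all genes with such an interval was not computed, so this count has no background. With many UMIs an interval can leave out 1 at a small ratio. All intervals are exact 95% intervals that cover counting error only, not variation between mice, pools or libraries.

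**Figure D1:**
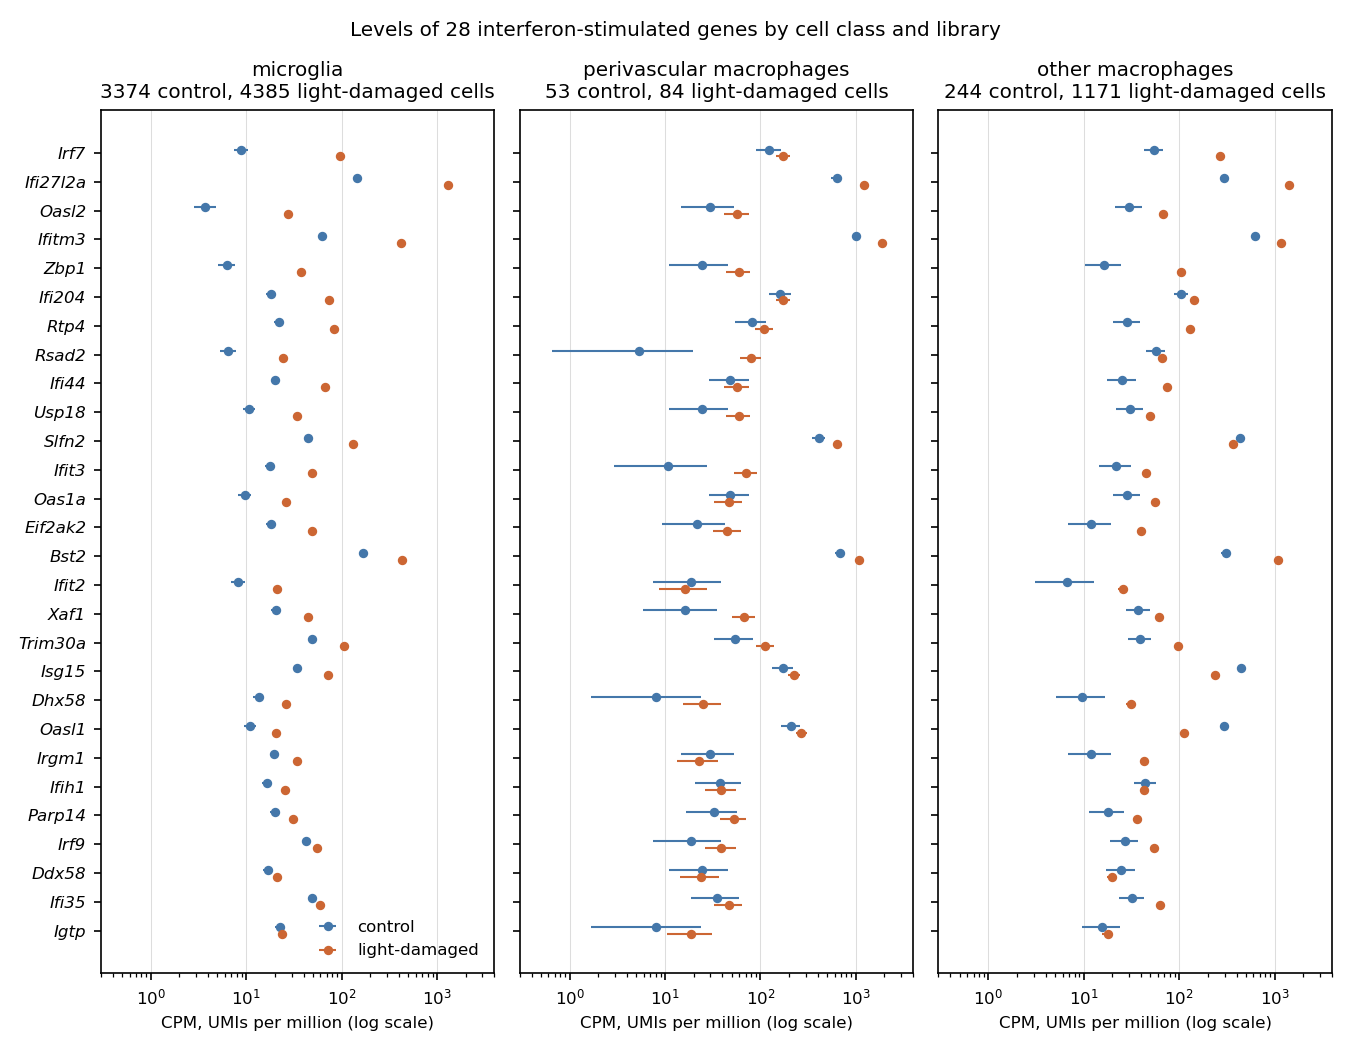
Level of the 28 members that reached 20 CPM in microglia, in CPM on a log axis, by cell class; blue points are the control library, orange points the light-damaged library, and bars are exact 95% Poisson intervals. In microglia the orange point lies to the right for all 28 genes, from Irf7 at the top (8.83 and 96.4) to Igtp (22.4 and 23.9); in other macrophages Isg15 and Oasl1 lie the other way.

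Signalling genes split. Irf7, the transcription factor that amplifies interferon production, stood at 8.83 CPM in control and 96.4 CPM in light-damaged microglia, a ratio of 10.9 (9.24 to 13) that was the highest among the 28. Irf9, the DNA-binding part of ISGF3, stood at 42.8 and 54.8 CPM, a ratio of 1.28 (1.17 to 1.40). Stat2, its partner, was under the minimum at 10.5 and 16.7 CPM. The complex's own members in the list thus differed far less between libraries than Irf7 did.

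Of the 6 nucleic acid sensors, 5 were higher. Zbp1, a sensor of Z-form nucleic acids that can start cell death, stood at 6.23 and 37.9 CPM, a ratio of 6.09 (4.98 to 7.52). Ifi204, a DNA-binding protein of the PYHIN family, stood at 18.2 and 73.9 CPM (ratio 4.06, 3.60 to 4.59). Eif2ak2, the kinase PKR that stops translation on double-stranded RNA, stood at 18.2 and 48.6 CPM (2.67, 2.36 to 3.03). These were the sensors with the larger ratios. The 3 helicase sensors of viral RNA had smaller ones: Dhx58 1.93 (1.67 to 2.25; 13.5 and 26.1 CPM), Ifih1 1.55 (1.35 to 1.78; 16.5 and 25.6 CPM) and Ddx58, which encodes RIG-I, 1.25 (1.08 to 1.44; 16.9 and 21.1 CPM).

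All 5 compared RNA-binding effectors were higher. Oasl2, of the oligoadenylate synthetase family, which makes the second messenger that activates RNase L, stood at 3.75 and 27.5 CPM, a ratio of 7.34 (5.67 to 9.65). Oas1a stood at 9.62 and 26.1 CPM (2.71, 2.29 to 3.23). Oasl1, which restrains translation of Irf7, stood at 11 and 20.3 CPM (1.85, 1.56 to 2.19). The family thus ranged widely, and 2 of its low members were almost without counts in control cells. Oas2 had 2 UMIs in 3374 control microglia and 140 in light-damaged ones, a ratio of 35.6 with an interval of 9.67 to 297. Oas3 had 1 and 77 UMIs, a ratio of 39.1 with an interval of 6.82 to 1565. Ifit proteins bind viral RNA ends. Ifit3 stood at 17.6 and 49.4 CPM (2.81, 2.48 to 3.19) and Ifit2 at 8.23 and 20.9 CPM (2.54, 2.11 to 3.07). Ifit1 and Ifit3b stayed under 20 CPM, at 5.26 and 15.7 CPM and at 5.14 and 13 CPM.

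Genes acting at membranes were higher as well, 3 of 3 compared. Ifitm3, which blocks viral fusion in endosomes, stood at 61.7 and 416 CPM, a ratio of 6.75 (6.33 to 7.20). Bst2, tetherin, which holds budding virions at the cell surface, stood at 168 and 435 CPM (2.59, 2.48 to 2.70). Rsad2, viperin, stood at 6.47 and 24.2 CPM (3.74, 3.05 to 4.62). In the ISG15 system, Isg15 itself, a ubiquitin-like protein, stood at 34.1 and 72.5 CPM (2.13, 1.94 to 2.34). Usp18, which removes ISG15 and dampens the interferon receptor, stood at 10.8 and 34.4 CPM (3.19, 2.72 to 3.76). Usp18 therefore had the larger ratio of this pair, with intervals that do not meet.

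Of 2 interferon-inducible GTPases compared, 1 was higher. Irgm1 stood at 19.7 and 34.0 CPM (1.73, 1.53 to 1.96) and Igtp at 22.4 and 23.9 CPM (1.06, 0.938 to 1.21). Gbp2, Gbp3 and Ifi47 were under the minimum, at 9.07, 12.5 and 2.64 CPM in light-damaged microglia, with ratios of 3.19, 2.14 and 4.86.

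Of the 8 other members compared, 7 were higher. Ifi27l2a, a small membrane protein of the ISG12 family, stood at 145 CPM in control and 1310 CPM in light-damaged microglia, a ratio of 9.01 (8.65 to 9.40). It alone held 42611 of the 115230 member UMIs of light-damaged microglia. Slfn2, a schlafen protein that keeps immune cells quiescent, stood at 44.7 and 133 CPM (2.98, 2.75 to 3.22). Rtp4 stood at 22.0 and 82.5 CPM (3.75, 3.36 to 4.19), and Ifi44 at 20.1 and 67.9 CPM (3.37, 3.0 to 3.79). Trim30a and Xaf1, which opposes an inhibitor of cell death, had nearly equal ratios of 2.14 (1.98 to 2.31; 49.1 and 105 CPM) and 2.16 (1.92 to 2.44; 20.6 and 44.4 CPM). Parp14, an ADP-ribosyltransferase, was close to the threshold at 1.53 (1.35 to 1.74; 20.1 and 30.7 CPM), and Ifi35 was within it at 1.23 (1.13 to 1.34; 49.0 and 60.1 CPM). The 14 members under 20 CPM had ratios of 1.40 to 39.1.

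Other quantities moved between the same microglia. The 10 microglia markers summed to 21390 CPM in control and 16738 CPM in light-damaged cells, the 6 stress and handling genes to 20241 and 11464 CPM, and the rod markers to 559 and 117 CPM. The list of 4 Muller glia markers summed to 3247 and 10859 CPM, of which Apoe, a lipid carrier also known in activated microglia, made 2392 and 10204 CPM. The list of 6 plasmacytoid dendritic cell markers summed to 278 and 563 CPM, of which Bst2, itself a member, made 168 and 435 CPM, and 3 and 2 of its markers were at 0. The median mitochondrial share was 1.55% and 2.61%. Their part in the result was not tested. With cells rich in rod transcripts left out, the count of higher members was again 24, and with cells thinned to equal depth it was 22.

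The second question was whether a higher sum came from most cells or from few. Every cell was thinned to 3000 UMIs, which left out 603 shallower control microglia and 0 light-damaged ones. The median control cell then held UMIs of 2 members and the median light-damaged cell of 4, and the median number of member UMIs was 2 and 7. Cells with 10 or more members were 43 of 2771 control microglia (1.55%, 1.13% to 2.08%) and 355 of 4385 light-damaged microglia (8.10%, 7.31% to 8.94%). This line is a point on a range and not a cell type: 30 and 247 cells lay on it or 1 member below. Cells with 15 or more members were 12 (0.433%) and 101 (2.30%). Thus the bulk of the cells was shifted and a tail was present in both libraries.

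In percentage points the largest shifts were in abundant members; as a ratio of shares, scarcer ones such as Oasl2 (0.830% and 6.32%) moved more. Ifi27l2a had a UMI in 23.0% of control microglia at 3000 UMIs (21.4% to 24.6%; 29.2% unthinned) and in 78.5% of light-damaged microglia (77.2% to 79.7%; 89.5% unthinned). Ifitm3 was seen in 11% and 50.1% (14.6% and 68.6% unthinned), and Irf7 in 2.53% and 15.8% (3.32% and 29.6% unthinned). Bst2 already had a UMI in 37.5% of control cells, and in 61.7% of light-damaged cells (50.4% and 82.6% unthinned). Ifit3 was seen in 2.53% and 7.16% (3.91% and 13.6% unthinned), and Isg15 in 7.47% and 11.4% (10.2% and 21.4% unthinned). Free RNA in the droplets can add UMIs to any cell. No captured cell type lacks these members by definition, so no background share was available for them and the part of free RNA in these shares was not tested.

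**Figure D2:**
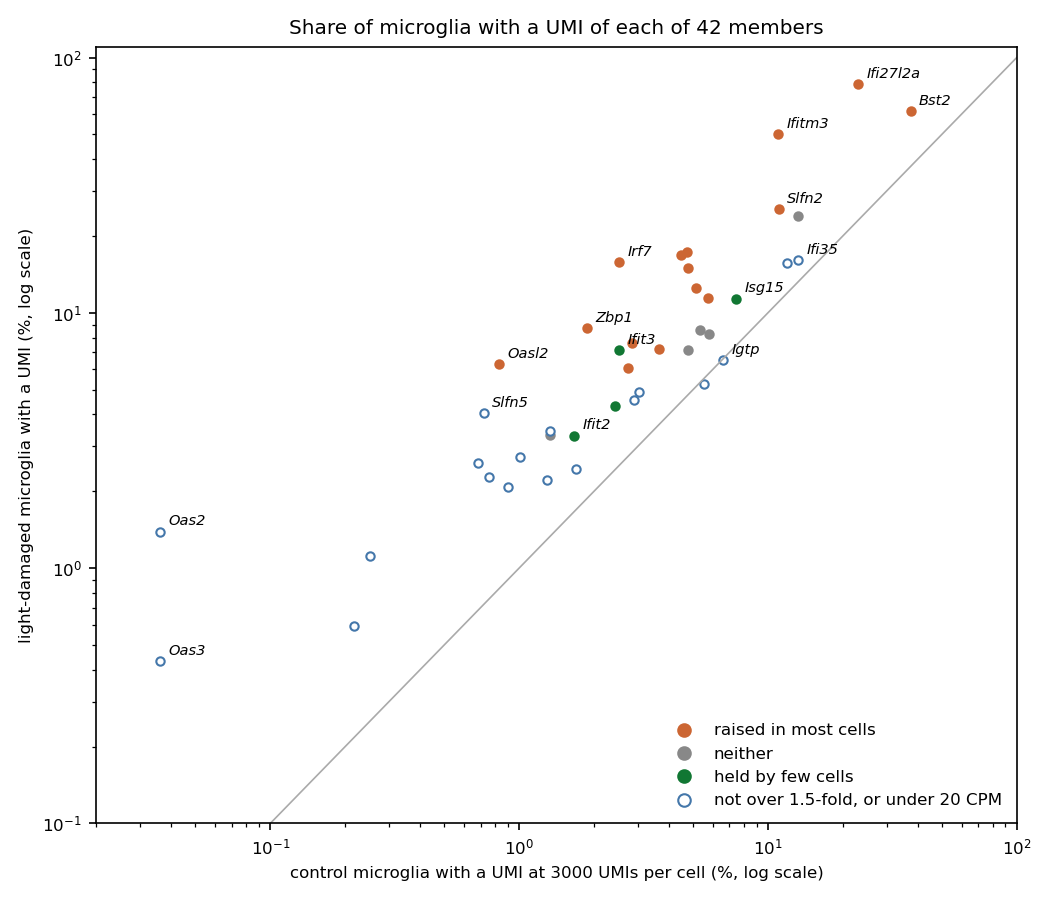
Share of microglia with at least 1 UMI of each of the 42 members after thinning to 3000 UMIs per cell, control (x) against light-damaged (y), both in % on log axes; colours give the pattern over bins of cells and the grey line marks equal shares. Ifi27l2a (23.0% and 78.5%) and Ifitm3 (11% and 50.1%) lie far above the line, and Igtp (6.60% and 6.55%) lies on it.

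To place each member, light-damaged microglia were ranked by the thinned sum of the other members and split into 10 equal bins, and each bin's level was set against all control microglia. A member was counted as raised in most cells when at least 6 of 10 bins exceeded 1.5 times the control level, and as held by few cells when at most 3 did. Of the 24 members called higher, 15 were raised in most cells, 4 were held by few, and 5 were in between. Among all 283 genes called higher in microglia, 75.3% were raised in most bins and 9.89% in few. The members' share of broad patterns was not above this. The 283 include the 24 members, and for all of them the cells were ranked by the sum of all members. A higher gene that does not follow this sum would be even over the bins and so tend to count as broad. The shares are thus not on an equal footing.

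Raised in most cells by the bin rule were Ifi27l2a, Ifitm3, Slfn2, Irf7, Ifi204, Eif2ak2, Oasl2, Bst2, Ifi44, Zbp1, Dhx58, Rtp4, Xaf1, Usp18 and Oas1a. The rule counts bins by their level and not cells with a UMI. After thinning, the share of light-damaged microglia with a UMI ran from 6.09% (Oas1a) to 78.5% (Ifi27l2a) over these members. Ifi27l2a and Ifitm3 exceeded the threshold in all 10 bins. Ifi27l2a stood at 534 CPM in the lowest bin and 2498 CPM in the highest, against 144 CPM over all thinned control microglia. Slfn2, over the threshold in 9 bins, stood at 89.6 and 268 CPM against 48.5 CPM. Irf7 stood at 9.11 and 377 CPM against 9.74 CPM, so its lowest bin was at the control level. With the top 5% of cells of each library set aside, the ratio of the other 95% was over 1.5 for all 15. It ran from 1.91 (Dhx58) to 15.4 (Oasl2). Most bins that gave these members their label lie in that 95%. The count of 15 thus follows largely from the rule and is no separate check.

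**Figure D3:**
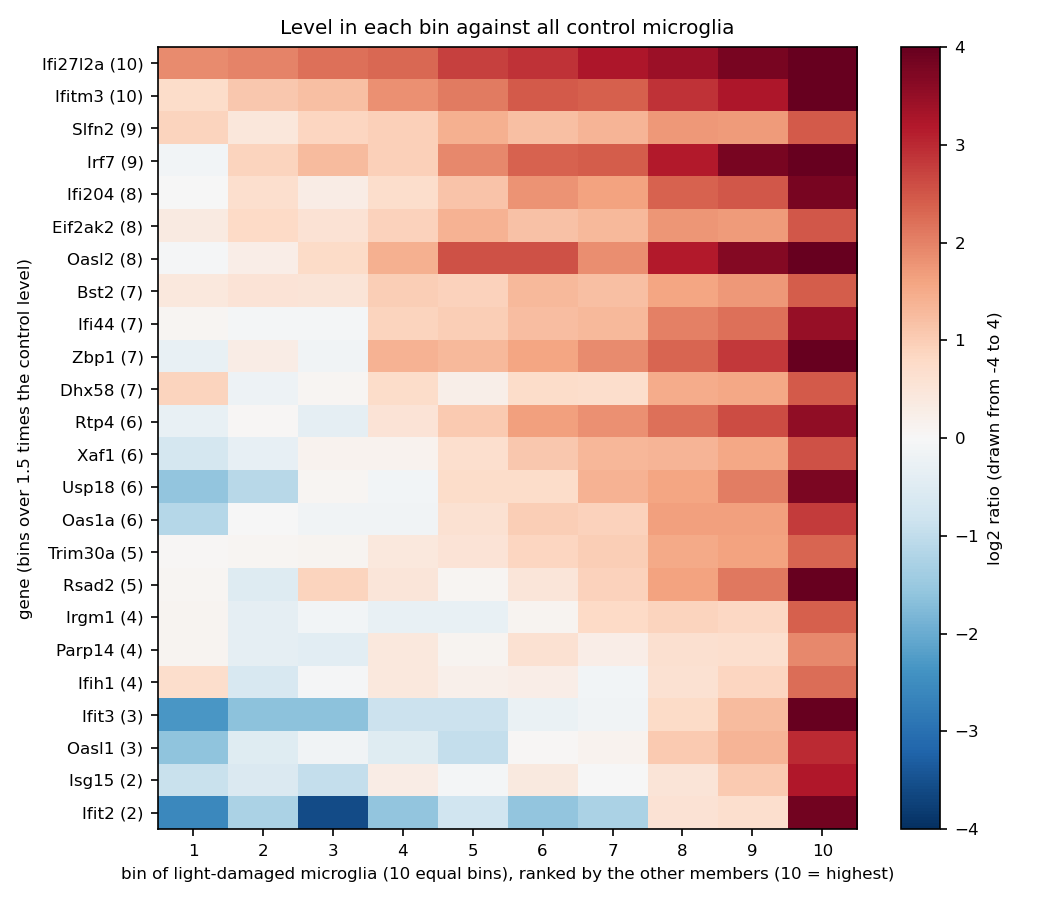
Level of the 24 members called higher in each of 10 bins of light-damaged microglia, ranked by the other members, as the log2 ratio to all control microglia; the number beside each name counts the bins over 1.5 times the control level. Red fills all 10 bins for Ifi27l2a and Ifitm3, while for Ifit2, Ifit3, Isg15 and Oasl1 strong red lies in the highest bins and most low bins are blue.

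Held by few cells by the bin rule were Ifit2, Ifit3, Isg15 and Oasl1. Their thinned shares of light-damaged microglia with a UMI ran from 3.31% (Ifit2) to 11.4% (Isg15). This range overlaps that of the members raised in most cells, so the labels do not rank members by detection. Ifit3 stood at 3.80 CPM in the lowest bin, 46.4 CPM in the ninth and 332 CPM in the highest, against 19.1 CPM over control cells. Isg15 stood at 19.7, 75.3 and 337 CPM at the same places against 36.6 CPM. The top 5% of light-damaged cells held 63.1% of the UMIs of Ifit2, 56.9% of Ifit3, 38.0% of Isg15 and 36.4% of Oasl1. They held 11.2% of Ifi27l2a, 12.1% of Slfn2 and 13.3% of Bst2. In between were Rsad2, Trim30a, Irgm1, Parp14 and Ifih1, of which Rsad2 had the highest variance-to-mean ratio of thinned counts among the 24, 5.63, with 45.1% of its UMIs in the top 5%. This middle group depended on the setting: over 10 alternatives Ifih1 was held by few in 9, Parp14 in 8, and Rsad2 was raised in most in 7.

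The control library held its own few cells with Ifit transcripts, and these enter the control level used above. Its top 5% held 75.5% of the control UMIs of Ifit3 and a smaller share of those of Ifit2. In the other 95% of cells Ifit3 stood at 4.94 CPM in control and 21.8 CPM in light-damaged microglia, a ratio of 4.42 (3.15 to 6.36), above its ratio over all cells. Ifit2 had a ratio of 1.48 (1.00 to 2.22) there, Isg15 1.48 (1.27 to 1.73) and Oasl1 1.35 (1.03 to 1.77). Ifit3 was thus concentrated in few cells of both libraries and also higher outside them. The other 3 were under 1.5-fold outside them, with intervals that reach past 1.5. The control top 5% held 21.1% of the Isg15 UMIs and 15.5% of the Oasl1 UMIs, less than in the light-damaged library. Over the members raised in most cells, the control share ran from 9.80% (Dhx58) to 65.4% (Oasl2, 26 thinned UMIs). Concentration in control was thus not particular to the members held by few. When each bin was set against the control bin of the same rank, 0 members counted as held by few cells. Without the top 5% of either library, 20 of the 24 members stayed over 1.5-fold.

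**Figure D4:**
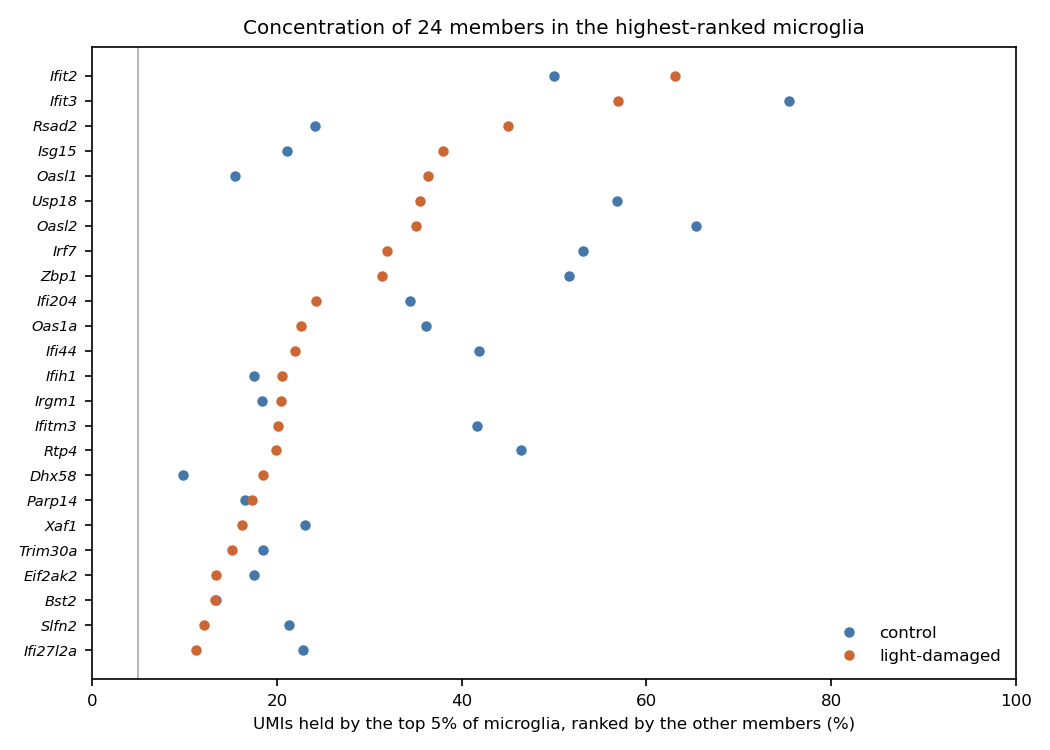
Share of each member's UMIs, in %, held by the top 5% of microglia of each library, ranked by the other members; the grey line marks the 5% of an even spread. Control (blue) and light-damaged (orange) points are shown for the 24 members called higher; in the light-damaged library Ifit2 (63.1%) and Ifit3 (56.9%) are farthest right and Ifi27l2a (11.2%) farthest left.

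The top 5% of light-damaged microglia, 219 cells ranked by all members, had passed the microglia gate like all cells of the class. Their microglia markers include the gate genes and so do not check what these cells are. Those markers summed to 14962 CPM against 16853 CPM in the other 4166 cells, and monocyte or macrophage markers to 2142 against 2514 CPM. The plasmacytoid dendritic list, which holds the member Bst2, summed to 1302 CPM against 515 CPM; Bst2 alone stood at 1073 CPM in the top 5% ranked by the other members and 369 CPM in the rest, at 3000 UMIs per cell. Their median depth was 8189 UMIs against 6724. The stress and handling genes summed to 8770 CPM there and to 11638 CPM in the rest, and rod markers to 69.0 and 120 CPM. Genes outside the set with the highest ratio of these cells to the rest were known interferon-induced genes for the most part: Ly6a at 53.3 against 4.42 CPM (12.1-fold, 9.26 to 15.7), Mnda at 76.1 against 6.45 CPM (11.8-fold) and Pyhin1 at 99.0 against 11.3 CPM (8.77-fold). Cxcl13, a B cell-attracting chemokine, was among them at 172 against 15.3 CPM (11.2-fold, 9.74 to 12.9), as was the T cell-attracting chemokine Cxcl10 at 463 against 84.1 CPM (5.51-fold). Phf11a, Ms4a4c, Phf11d, Ifi44l and Phf11b completed the 10. These cells were ranked on the members, so the values describe the ranking.

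In perivascular macrophages, which line retinal vessels, the set started from a higher level. Its sum was 4127 CPM in control and 7043 CPM in light-damaged cells. Monocyte or macrophage markers moved with it, from 12063 to 27516 CPM, of which Lyz2 made 10836 and 25669 CPM, and stress and handling genes went from 38401 to 18235 CPM; their part was not tested. Of 33 members compared, 19 were higher, 1 was lower and 13 were within 1.5-fold, against 21.1% of 5020 genes higher and 16.1% lower. With no minimum 20 of 42 were higher, against 25.4% of 8697 genes. The 53 control cells limit this class: the interval lay above 1 for 13 of the 19. Ifitm3 stood at 1005 and 1907 CPM (1.90, 1.69 to 2.13) and Ifi27l2a at 631 and 1230 CPM (1.95, 1.69 to 2.26). Bst2 stood at 687 and 1091 CPM (1.59, 1.38 to 1.83). Xaf1 had 6 and 54 UMIs, 16.2 and 67.8 CPM (4.20, 1.81 to 11.9). The abundant members were thus higher by smaller ratios than in microglia. Irf7, at 124 and 175 CPM, was within the threshold (1.41, 1.00 to 2.01). Some of the largest ratios rested on few light-damaged cells. Ifit1 had 1 UMI in control and 50 in light-damaged cells, 76.0% of them in 3 cells. Rsad2 had 2 and 63, 69.8% of them in 3 cells. Slfn5 had 1 and 32, and the 32 lay in 22 light-damaged cells, with 28.1% in 3 cells. Isg20, an exonuclease, had 0 and 19 UMIs, at least 2.95-fold higher against a floor of 3 counts in the class, with an exact interval that starts at 2.18. Gbp3 was the lower one, with 12 and 8 UMIs, 32.3 and 10.1 CPM, a ratio of 0.311 (0.110 to 0.827). With a stricter gate of 20 per 10000, which kept 16 and 23 cells, 10 members were higher, and Ifit1, Rsad2, Slfn5, Isg20 and Gbp3 went the other way.

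In other macrophages the set summed to 3229 CPM in control and 6164 CPM in light-damaged cells. Of 31 members compared, 23 were higher, 3 were lower and 5 within 1.5-fold, against 22.9% of 5861 genes higher and 28.4% lower. With no minimum 28 of 42 were higher, against 18.2% of 13567 genes. Ifi27l2a stood at 295 and 1416 CPM (4.81, 4.35 to 5.32), Bst2 at 307 and 1099 CPM (3.59, 3.25 to 3.96), and Irf7 at 54.5 and 266 CPM (4.89, 3.88 to 6.26). Zbp1 had the highest ratio of those compared, 6.37 (4.19 to 10.2; 16.4 and 104 CPM). Isg15, Oasl1 and Gbp3 were lower. Isg15 stood at 448 CPM in control and 239 CPM in light-damaged cells, 1.87-fold lower, and Oasl1 at 298 and 113 CPM, 2.62-fold lower. Gbp3 stood at 40.3 and 23.1 CPM, 1.75-fold lower. At 3000 UMIs per cell, Isg15 had a UMI in 29.1% (22.4% to 36.5%) of control and 26.0% (23.6% to 28.7%) of light-damaged cells (27.5% and 47.5% unthinned), and 3 control cells held 29.5% of its 601 control UMIs. With at least 1 UMI of Csf1r and of Cd68, Aif1 or Lyz2 required, which kept 169 and 1116 cells, Isg15 was 2.25-fold lower and Oasl1 3.18-fold lower. With both gate sums under 5 they were 1.35-fold and 1.66-fold lower. With cells rich in rod transcripts left out, Isg15 was 2.22-fold, Oasl1 3.11-fold and Gbp3 1.96-fold lower. The perivascular transcripts of the control cells, given above, moved with these values, and their part was not tested. Within the light-damaged cells of this class the top 5% held 38.0% of Ifit1 UMIs, 34.1% of Ifit2, 33.3% of Ifit3 and 26.5% of Ifit3b. This was not particular to the Ifit genes: the share was 38.1% for Cmpk2 (21 thinned UMIs), 29.6% for Rsad2 and 25.9% for Isg15. Ifi27l2a and Bst2 were more even, at 8.20% and 8.12%.

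By summed CPM the set was higher outside microglia within each library. In control, 20 of 42 members were above their microglial level in perivascular macrophages and 1 (Irf9) below, counting only intervals that leave out 1. In other macrophages 24 were above and 2 (Irf9 and Ifi35) below. In the light-damaged library the counts were 24 and 0 for perivascular macrophages and 30 and 5 for other macrophages. The same share over all genes was not computed, so these counts have no background and are not a result particular to the members. Some rest on few cells, as given above for Ifit1 and Rsad2 in light-damaged perivascular macrophages. How far a gene lay above microglia differed between the libraries. Ifi27l2a was 4.34-fold above microglia in control perivascular macrophages and 2.03-fold in control other macrophages, and 1.08-fold (1.06 to 1.10) above in light-damaged other macrophages; the interval for light-damaged perivascular macrophages held 1. Irf7 was 14.0-fold above microglia in control perivascular macrophages and 1.81-fold in light-damaged ones. Bst2 was 4.09-fold and 2.51-fold above microglia in perivascular macrophages, but 1.82-fold (1.64 to 2.02) and 2.53-fold (2.47 to 2.59) above in other macrophages. Oasl1 was 18.8-fold and 13.2-fold above in perivascular macrophages, and 27.0-fold and 5.58-fold above in other macrophages.

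The wider pathway was described from lists of 99 genes that are not members. In microglia 48 of them reached the minimum, 12 were higher and 0 lower, against the background of 5.42% of genes higher. Ligands were scarce. Ifnb1, interferon beta, had 147 UMIs in 55 of 3374 control microglia (8.89 CPM) and 111 UMIs in 55 of 4385 light-damaged microglia (3.41 CPM), 2.61-fold lower (2.02 to 3.37). In other macrophages it had 45 and 116 UMIs, 33.6 and 9.10 CPM, 3.69-fold lower. Ifna1, Ifna2, Ifna4, Ifna5, Ifng, Ifnl2 and Ifnl3 had 0 UMIs in all 3 classes of both libraries. In perivascular macrophages Ifnb1 had 0 and 6 UMIs. Ligand transcripts were thus found in few cells, and in microglia and other macrophages at a lower level in the light-damaged library. That level rested on few cells. In microglia 3 cells held 39.5% of the control and 22.5% of the light-damaged Ifnb1 UMIs, and in other macrophages 53.3% and 48.3%. The share of microglia with an Ifnb1 UMI was 1.63% in control and 1.25% in light-damaged cells, unthinned. The receptor and kinase genes lay within 1.5-fold in microglia, 5 of 5 compared, from Ifnar2 at 0.706 to Ifngr2 at 1.45, with Ifnar1 at 1.19. None of the 9 sensors and adaptors compared was called. Among other interferon-induced genes 11 of 24 were higher, led by Lgals3bp (7.18, 6.75 to 7.63), the chemokines Ccl5 (4.99, 4.60 to 5.42) and Ccl12 (3.82, 3.67 to 3.98), and Tap1, which loads peptides for MHC class I (2.32, 2.08 to 2.59). Ifitm2, a relative of Ifitm3, had a ratio of 2.18 (1.95 to 2.45). Cxcl10, high in the top-ranked cells, was within 1.5-fold over all microglia at 96.0 and 107 CPM.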

How the data were processed

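Each group was 1 pooled library, compared as mapped by its label. The authors deposited UMI counts per gene and barcode, made with Cell Ranger 2.0.0 on mm10 per the submitters' processing notes; further upstream steps were not given in the sources used here. Barcodes needed 300 genes or more and no more than 10% mitochondrial UMIs. Scrublet (scanpy 1.11.5) marked 0 and 1 doublets automatically, so the highest scores were removed at 0.8% per 1000 barcodes, 128 control and 372 light-damaged. Counts were summed by class and scaled to 1000000 (CPM) (Python 3.11.15, scipy 1.17.1). Cells passing both gates (5 and 2) were left out. Ratios have exact conditional Poisson intervals and shares Clopper-Pearson intervals. No p-value was computed. The calling and bin rules were tested on simulated data. Of symbols with several identifiers, the one with most UMIs was used. Of 101 listed pathway genes 99 were found. All members are accounted for, with full values for those at 20 CPM in microglia; pathway genes were named where over 1.5-fold with an interval without 1, up to 6 a direction, with ligands and receptors by count. The members, lists and rules were chosen with earlier results of these data known. Gene coordinates are from GENCODE M21, promoter windows from RefSeq. Alternatives covered filters, doublets, depth, scaling, thresholds, gates and ranking. Results on some items are not reported here.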

Additional observations from a re-analysis of the deposited data

Results flagged for a closer look

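With 1 library per group none of these differences between classes was tested; each rests on counting intervals that do not meet. Isg15 had a light-damaged to control ratio of 2.13 in microglia and 0.534 in other macrophages, and Oasl1 of 1.85 and 0.381. Gbp3, under 20 CPM in microglia, had a ratio of 2.14 there, 0.311 in perivascular macrophages (12 and 8 UMIs) and 0.572 in other macrophages. Slfn2 had a ratio of 2.98 in microglia, 1.58 in perivascular macrophages and 0.849 in other macrophages; with both gate sums under 5, its ratio in other macrophages was 1.33. Cells in no class, 149 control and 787 light-damaged, enter no comparison above, and their summed members stood at 2221 and 5590 CPM, a ratio of 2.52 (2.41 to 2.64).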

How the results depend on the processing

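No paired analysis was possible because each group has 1 library. In microglia the count of 24 higher members ranged from 19 to 35 under the alternatives except a minimum of 50 CPM, which left 12 members to compare and gave 10. In perivascular macrophages the count of 19 became 12 at a 2-fold threshold and 10 with the gate of 20. That gate also reversed the log2 ratios of Ifit1 (-2.61), Rsad2 (-0.61), Slfn5 (-0.29), Isg20 (-1.61) and Gbp3 (0.97). In other macrophages 23 became 13 at 50 CPM, where 18 members were compared. Members raised in most microglia went from 15 to 9 at 2 times the control level. Members held by few went from 4 to 0 against control bins of the same rank, 7 with 20 bins, 11 at 2 times the control level, and 7 without cells rich in rod transcripts. Over the 10 alternatives for the bins, 9 of the 15 broad members kept their pattern in each one, and 0 of the 4 held by few cells and 0 of the 5 in between did. Of the broad members 2, Oas1a and Dhx58, counted as held by few in 1 and 3 alternatives. The cause of these changes was not tested, except that a higher minimum or a stricter gate leaves fewer genes or cells. Ranking by the number of members with a UMI, ranking without Ifi27l2a, Ifitm3 and Bst2, and leaving out the top 5% of cells were chosen after seeing the data. The control library was shallower, and genes with few UMIs there have wide intervals.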
